A study of Homo sapiens with 24 samples.

Results

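Histone genes were examined in 24 Affymetrix HG-U133 Plus 2.0 arrays of human cell lines with and without mitochondrial DNA (mtDNA). Their members were all genes on the array whose current symbol is that of a core or linker histone (symbols starting with H1-, H2AC, H2BC, H3C, H4C, H2AZ, H2AX, H2AJ, H3- or MACROH2A), taken from probe sets annotated to a single symbol, with the brightest probe set standing for each gene. The rule found 58 symbols, carried by 82 probe sets, of 19775 genes on the array. Of these, 43 were replication-dependent histone genes (40 of them on chromosome 6, H2BC21 and H2AC25 on chromosome 1 and H2BC12L on chromosome 21), 11 were single variants by their symbol (of which H3-4 lies near H2AC25 on chromosome 1), 3 were pseudogenes (H4C10P, H1-9P and H2AC5P) and 1 was an antisense RNA (H1-10-AS1). The pseudogenes and the antisense RNA were too dim to be tested in either cell line.

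The 24 arrays formed 8 groups of 3 arrays, which for the HEK293 cells came from separate cultures. In 4 groups, HEK293 cells, a line derived from human embryonic kidney, carried a doxycycline-inducible dominant-negative mtDNA polymerase (DN-POLG) that depletes mtDNA over time, and were harvested at day 0, 3, 6 or 9 of doxycycline. In 2 further groups, AOX/NDI1 cells, which are DN-POLG cells that also express alternative oxidase (AOX) and the NADH dehydrogenase NDI1 and so can oxidize NADH in mitochondria without the mtDNA-encoded complexes, were harvested at day 9 or day 0. The last 2 groups were 143B osteosarcoma cells that had lost their mtDNA (rho0) and 143B cells that had kept it (rho+). All cells grew in medium with uridine and pyruvate, day 0 groups received no doxycycline, and each background is represented by a single derived line, so that a comparison describes that line.

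Histones package DNA into nucleosomes, in which pairs of H2A, H2B, H3 and H4 form the core and linker H1 binds outside it. Replication-dependent genes lie in clusters, supply most new histone during S phase, and are switched on together through the cyclin E-CDK2 substrate NPAT. Their mRNAs end mostly in a stem-loop in place of a poly(A) tail, which the stem-loop binding protein SLBP recognizes, and they are rapidly degraded when DNA synthesis stops. Many cluster genes can also yield polyadenylated transcripts, which are best known in differentiating or non-dividing cells. Single variants such as H2AZ1, H3-3A and the macroH2A genes are made throughout the cell cycle, carry ordinary poly(A) tails and serve particular tasks in transcription, repair and silencing.

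The way the arrays work bears on every value below. The labelling kit starts copying at poly(A) tails, so the signals of replication-dependent genes read the polyadenylated part of their mRNA, and total histone mRNA was not measured. Cluster genes of the same core histone are nearly identical in coding sequence. Of the 43 replication-dependent genes, 11 were read by a probe set whose type (_s_at or _x_at) can match several transcripts. A signal under 1 symbol may therefore contain RNA of its relatives. In bulk RNA, a change in the share of cells that express a gene and a change in the RNA of each cell cannot be told apart.

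The control regions of the genes on which the results turn are shown because the cluster genes are known for shared promoter elements. RefSeq promoters (GRCh38.p14, 250 bases before to 50 bases after the start of the gene) were matched for 51 of the 54 histone genes. They are written 5′ to 3′ on the strand of the gene, with capitals for the octamer ATTTGCAT, which octamer factors such as POU2F1 (Oct-1) bind, for the TATA box (TATAAA) and for CCAAT, each on either strand (so TTTATA and ATTGG are also in capitals). H2BC21 (chr1:149886633-149886932, minus strand), H2BC11 (chr6:27132746-27133045, minus strand), H2BC9 (chr6:26251364-26251663, plus strand) and H2AC25 (chr1:228457824-228458123, minus strand) were higher at day 9 in DN-POLG cells, and H2BC12 (chr6:27146809-27147108, minus strand), a close relative of H2BC11, is shown beside them as a gene that was not called.
H2BC21: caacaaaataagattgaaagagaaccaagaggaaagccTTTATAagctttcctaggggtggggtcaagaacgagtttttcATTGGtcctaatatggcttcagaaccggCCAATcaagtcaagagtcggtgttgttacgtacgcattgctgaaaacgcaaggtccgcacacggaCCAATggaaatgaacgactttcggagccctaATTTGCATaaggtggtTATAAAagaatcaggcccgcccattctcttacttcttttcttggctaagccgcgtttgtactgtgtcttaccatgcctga
H2BC11: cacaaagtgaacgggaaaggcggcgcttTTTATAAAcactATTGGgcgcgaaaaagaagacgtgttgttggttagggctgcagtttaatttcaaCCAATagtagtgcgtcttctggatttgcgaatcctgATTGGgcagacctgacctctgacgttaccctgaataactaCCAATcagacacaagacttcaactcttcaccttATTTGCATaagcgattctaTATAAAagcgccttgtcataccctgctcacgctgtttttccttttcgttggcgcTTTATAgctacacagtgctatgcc
H2BC9: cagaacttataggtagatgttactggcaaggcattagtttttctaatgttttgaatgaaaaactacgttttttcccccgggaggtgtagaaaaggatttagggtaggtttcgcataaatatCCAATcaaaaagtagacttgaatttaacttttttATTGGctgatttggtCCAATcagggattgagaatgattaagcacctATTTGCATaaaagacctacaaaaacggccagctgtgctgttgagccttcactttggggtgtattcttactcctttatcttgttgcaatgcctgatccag
H2AC25: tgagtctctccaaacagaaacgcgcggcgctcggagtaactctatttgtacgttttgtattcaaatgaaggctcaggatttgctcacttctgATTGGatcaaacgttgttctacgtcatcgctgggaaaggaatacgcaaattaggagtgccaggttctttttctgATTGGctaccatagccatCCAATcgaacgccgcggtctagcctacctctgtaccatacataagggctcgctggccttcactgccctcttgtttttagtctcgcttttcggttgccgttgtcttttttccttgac
H2BC12: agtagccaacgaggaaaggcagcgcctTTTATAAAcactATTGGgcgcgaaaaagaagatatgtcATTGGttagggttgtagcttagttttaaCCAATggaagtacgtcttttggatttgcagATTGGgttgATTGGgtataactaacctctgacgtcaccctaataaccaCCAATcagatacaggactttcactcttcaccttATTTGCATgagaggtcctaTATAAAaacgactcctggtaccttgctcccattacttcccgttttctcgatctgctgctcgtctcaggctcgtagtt

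The octamer started at position -46 in H2BC21 and in H2BC12, at -47 in H2BC11 and at -49 in H2BC9, counted from the start of the gene, and was not found in this window of H2AC25, which held 3 CCAAT boxes and no TATAAA. It was present in 16 of 40 replication-dependent promoters (40%) and in 0 of 11 variant promoters, against 1.77% of 35116 promoters of the same length. By family, 10 of 13 H2BC promoters (76.9%) and 6 of 8 H2AC promoters (75%) held it, and none of the 6 H3C, 7 H4C and 6 H1 promoters did. Neighbouring H2A and H2B genes that are transcribed away from each other shared a window in 4 pairs (H2BC4 with H2AC6, H2AC14 with H2BC14, H2BC15 with H2AC15 and H2AC17 with H2BC17, overlapping by 255 to 293 bases), so the counts of these families are not independent. TATAAA was found in 67.5% of replication-dependent and 36.4% of variant promoters, against 11.5% of all promoters, and CCAAT in 87.5% and 72.7%, against 34.6%. Of the 8 genes called higher at day 9 (below), 7 had a promoter in the table, and the octamer was present in 5 of them, so that a called gene held it about as often as any H2AC or H2BC gene.

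Signals are MAS5 intensities on a linear scale, for which each array had been scaled to the same trimmed mean. A probe set was tested where its mean log2 signal reached the median of the line, which corresponded to a signal of 57.2 in HEK293 cells and 83.3 in 143B cells, and values under these levels have little meaning in size. Of the 54 histone genes, 30 were tested in HEK293 cells (22 replication-dependent and 8 variants), 37 in 143B cells (28 and 9) and 13 in neither. Fold changes are log2 differences with their standard error (SE), tested with limma and called at a Benjamini-Hochberg adjusted p of at most 0.05 over all tested probe sets, and n was 3 arrays in every group.

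The labels were checked on POLG, of which the transgene encodes a dominant-negative form, and on mtDNA transcripts. A probe set for POLG had signals of 2834, 4739 and 4268 in DN-POLG cells at day 9, against 307, 421 and 280.1 at day 0. In AOX/NDI1 cells it had 4035, 2468 and 447.2 at day 9, against 274.2, 196.8 and 266.3 at day 0, so that replicate 3 at day 9 was much lower than the other 2. A brighter probe set for POLG was not called at day 9 in DN-POLG cells (0.23, adjusted p = 0.74) or in AOX/NDI1 cells (0.38, adjusted p = 0.469). Which of them reads the transgene was not tested. The mtDNA transcript of COX2 fell by 1.85 on the log2 scale in DN-POLG cells at day 9 and by 1.25 in AOX/NDI1 cells at day 9, and that of ND6 also fell in both (by 2.53 and 2.82), but that of COX1 was not called in either (-0.16, adjusted p = 0.767, and 0.03, adjusted p = 0.958). COX1 had signals of 47.43, 29.47 and 31.14 in rho0 cells, under the level tested, against 32360, 28560 and 29650 in rho+ cells. Array DN-POLG day 6 replicate 1 stood apart, with an ACTB 3′ to 5′ signal ratio of 8.92, against 1.05 to 1.81 on the other HEK293 arrays, and the ratio ran from 5.53 to 17.1 in 143B cells. A list of 7 HEK293 marker genes summed to between 157 and 508 in 143B cells and between 5350 and 9150 in HEK293 cells, but only 2 of the 7 separated the lines, while 4 of 9 osteosarcoma markers were higher in every 143B array and 1 in every HEK293 array.

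The first question was how histone genes followed the stepwise loss of mtDNA in DN-POLG cells. At day 9, when depletion had run longest, 8 of 22 tested replication-dependent genes rose and none fell, against 2.31% of all tested probe sets called higher and 6.07% called lower. Only 2 of the 8 calls were left without probe sets that can match several transcripts (H2AC25 and H2BC11, since those of the other 6 genes were then not tested), and 3 with only the arrays of that comparison (H2BC11, H2BC21 and H2BC9). None of the 8 tested variants was called. The median change of the replication-dependent genes was 0.85 on the log2 scale, with 21 of 22 above 0, against a median of 0.21 for the variants and 0.01 for all tested probe sets. The genes that rose encode H2B (H2BC21, H2BC11, H2BC9, H2BC5, H2BC6 and H2BC12L) or H2A (H2AC14 and H2AC25), and no H1, H3 or H4 gene was called among probe sets of a single symbol. Probe sets shared by several histone genes were left out of this count.

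The largest change was that of H2BC21, an H2B gene on chromosome 1 apart from the major cluster, which is known for making polyadenylated mRNA as well. Its signals in DN-POLG cells were 316, 380.5 and 587.7 at day 0, 316.7, 330.5 and 314.4 at day 3, 605.8, 389.6 and 638.8 at day 6, and 2554, 2459 and 6929 at day 9. Every array at day 9 thus lay well above every array of the 3 earlier times, while days 0 and 6 overlapped. The difference between day 9 and day 0 was 3.09 (SE 0.45, 8.51-fold, adjusted p = 0.000682).

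H2BC11, an H2B gene in the chromosome 6 cluster, had signals of 51.25, 25.99 and 49.52 at day 0, 55.38, 41.43 and 79.4 at day 3, 151, 35.49 and 61.38 at day 6, and 213, 238.1 and 324.9 at day 9. All 3 arrays at day 0 were below a signal of 57.2, the level at which probe sets were tested, so the size of its change (2.65, SE 0.46, adjusted p = 0.00222) rests on dim values, although the groups did not overlap. The single high array at day 6 was replicate 1, the array with the high ACTB ratio. Unlike the other H2B genes called at day 9, H2BC11 was read by a probe set of the type designed for a single transcript.

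H2BC9, another H2B gene of the cluster, had signals of 510.8, 525.6 and 535.8 at day 0, 564.2, 430.8 and 607.7 at day 3, 758.5, 489.3 and 813.7 at day 6, and 1220, 1366 and 1482 at day 9, a change of 1.37 at day 9 (SE 0.23, adjusted p = 0.00178). Days 0, 3 and 6 overlapped and day 9 lay above them all. The day 9 calls of H2BC21, H2BC11 and H2BC9 held in all other settings and left-out arrays in which their probe sets were tested, but H2BC21 and H2BC9 were not tested without probe sets that can match several transcripts, nor H2BC11 with a stricter filter on dim probe sets.

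The other 3 H2B genes rose by about 2-fold. H2BC5 had signals of 1601, 1420 and 2918 at day 9, against 633.4, 726.6 and 892.1 at day 0 (1.34, SE 0.29, adjusted p = 0.00919), but its second probe set changed by 0.64 and was not called (adjusted p = 0.112). H2BC6 had 1955, 1817 and 2385 at day 9, against 939, 801.6 and 1244 at day 0 (1.06, SE 0.22, adjusted p = 0.00758). H2BC12L, the H2B gene on chromosome 21, had 5836, 5259 and 5348 at day 9, against 2430, 2595 and 3393 at day 0 (0.98, SE 0.21, adjusted p = 0.00915). In each of these genes the lowest array at day 9 was above the highest at day 0, and each was read by a probe set that can match several transcripts.

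Both H2A genes that rose had a high replicate 3 at each end of the comparison. H2AC14 had signals of 381.6, 358.9 and 573 at day 9, against 87.17, 86.66 and 187.6 at day 0 (1.93, SE 0.50, adjusted p = 0.0251). H2AC25, the H2A gene that is not in the chromosome 6 cluster, had 2011, 1544 and 2400 at day 9, against 796.2, 721 and 1360 at day 0 (1.08, SE 0.25, adjusted p = 0.014). H2AC14 and H2AC25, with H2BC5, lost their call without DN-POLG day 9 replicate 3, which left 5 genes called, and H2AC14 also lost it without either of the other day 9 arrays or without day 0 replicate 1 or 2, while H2AC25 also lost it without day 0 replicate 1.

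**Figure D1:**
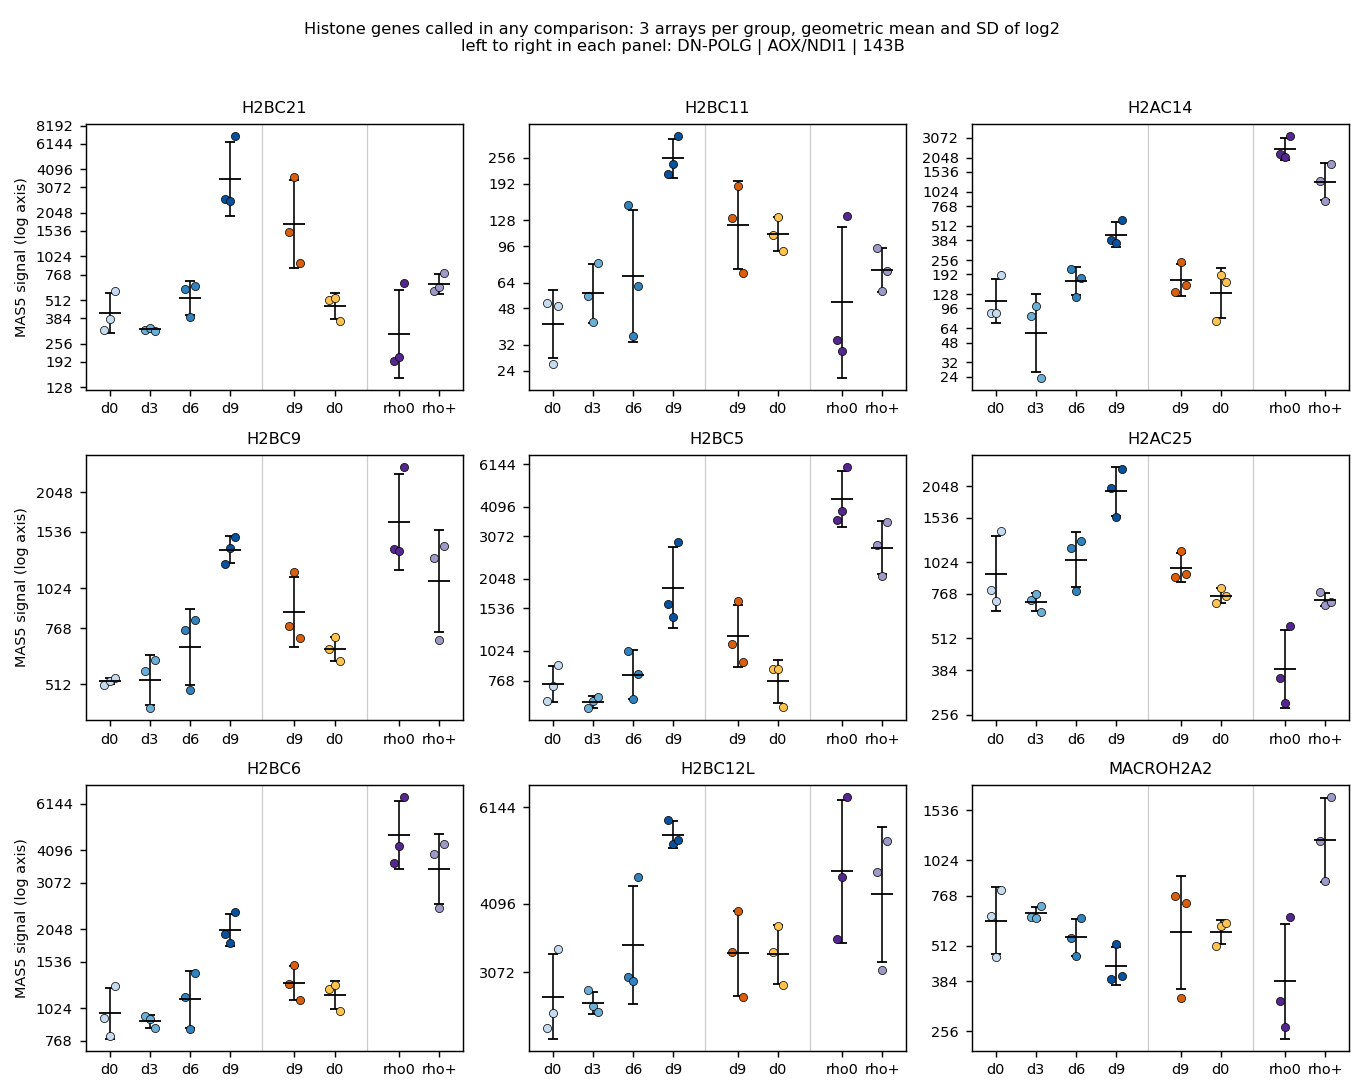
MAS5 signal (log axis) of the 9 histone genes called in any comparison, with a point for each of 3 arrays per group and bars for the geometric mean and the SD of the log2 signal. In H2BC21 the 3 DN-POLG day 9 arrays (2554, 2459 and 6929) lie above all earlier DN-POLG arrays, and MACROH2A2 is lower in rho0 than in rho+ cells.

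Several cluster genes moved the same way at day 9 without passing the threshold. H2AC17, an H2A gene, differed by 1.14 (adjusted p = 0.0913) and H4C11, an H4 gene, by 0.95 (adjusted p = 0.0874). The H2B gene H2BC12 had 10770, 12740 and 13350 at day 9, against 8135, 4767 and 8692 at day 0 (0.81, adjusted p = 0.139). Its groups did not overlap, and without DN-POLG day 6 replicate 1 it was called (0.81, adjusted p = 0.0468). The linker histone gene H1-2 had 5245, 3922 and 7140 at day 9, against 3955, 2544 and 4443 at day 0 (0.57, adjusted p = 0.44), so that its groups overlapped. H3C6, an H3 gene with dim and scattered signals, was the only tested replication-dependent gene with a negative difference (-0.47, adjusted p = 0.724).

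No single variant passed the test at day 9. H2AZ1, which encodes H2A.Z, had 26580, 23610 and 24540 at day 9, against 21120, 21120 and 23390 at day 0 (0.19, adjusted p = 0.6). MACROH2A1 and H2AX, the variant phosphorylated at DNA breaks, had differences of 0.23 (adjusted p = 0.488) and 0.13 (adjusted p = 0.897). The largest differences were those of H2AJ, an H2A variant with a poly(A) tail, at 0.68 (2047, 1592 and 1943 at day 9, against 1233, 1333 and 929.8 at day 0, adjusted p = 0.171), and of MACROH2A2, a macroH2A gene linked to silent chromatin, at -0.53 (390.7, 518.7 and 402.2 at day 9, against 654, 469 and 805.3 at day 0, adjusted p = 0.301). A second probe set of H2AJ had a difference of 0.92 with an adjusted p of 0.0492, so that the 2 probe sets fell on different sides of the threshold.

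**Figure D2:**
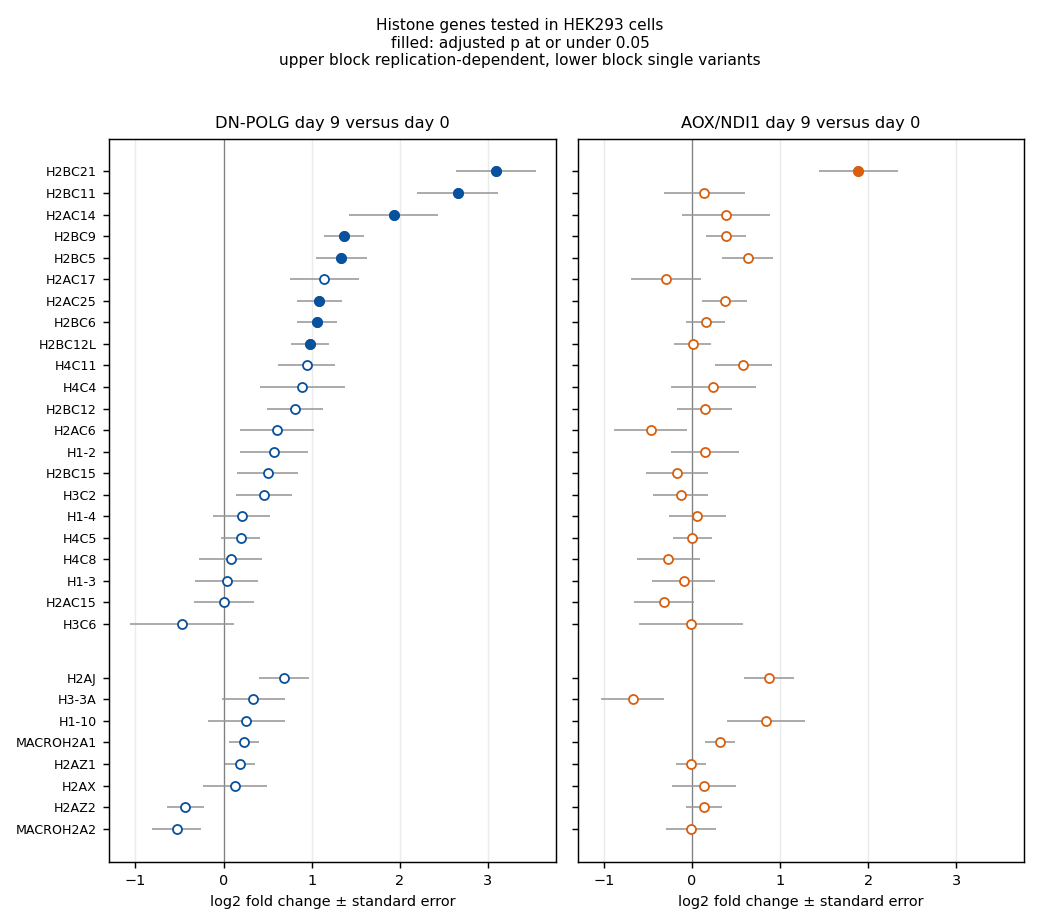
Log2 fold change with its standard error for the 30 histone genes tested in HEK293 cells, in DN-POLG cells (left) and AOX/NDI1 cells (right) at day 9 versus day 0, with filled points at an adjusted p of at most 0.05. In DN-POLG cells 8 replication-dependent genes are filled, led by H2BC21 (3.09), and in AOX/NDI1 cells only H2BC21 (1.89).

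The earlier times held no called histone gene. At day 3, 0% of probe sets were called higher and 0% lower, the median of the replication-dependent genes was -0.17 against 0.05 for all probe sets, and at an unadjusted p under 0.05 only H4C5, an H4 gene, stood out (-0.47, adjusted p = 1). The largest day 3 differences were those of H2AC14 (-0.95, adjusted p = 1), in which 1 array was dim, and H3C6 (0.70, adjusted p = 1). At day 6, 0.324% of probe sets were called higher and 1.05% lower, and the replication-dependent genes had a median of 0.15, against -0.03 for all. The lowest adjusted p of a histone gene at day 6 was that of H2AZ2, the second H2A.Z gene, with signals of 3429, 6165 and 4386 at day 6, against 7614, 7804 and 8748 at day 0 (-0.83, adjusted p = 0.0586). Its groups did not overlap at day 6, and at day 9 it had 5829, 6171 and 5874 (-0.43, adjusted p = 0.238). The lowest of the day 6 values came from replicate 1, the array with the high ACTB ratio, and H2AZ2 was called without DN-POLG day 6 replicate 2 (-1.05, adjusted p = 0.0239). Its 3 other tested probe sets were not called at day 6 (0.11, 0.06 and -1.18, the last with an adjusted p of 0.117).

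The second question was whether the same genes moved in AOX/NDI1 cells. At day 9 in these cells, 1 of 22 replication-dependent genes rose and none of the 8 variants was called, against 2.46% of all tested probe sets called higher and 9.33% called lower. That gene was again H2BC21, with signals of 1511, 3643 and 918.4 at day 9, against 511.9, 531.8 and 367.6 at day 0 (1.89, SE 0.45, 3.70-fold, adjusted p = 0.0122). The lowest array at day 9 was replicate 3, in which the POLG probe set was also lowest, and without that array the change was 2.34 (adjusted p = 0.00614). H2BC21 lost its call without AOX/NDI1 day 9 replicate 2 (adjusted p = 0.0574) or day 0 replicate 3 (adjusted p = 0.0638).

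The median of the replication-dependent genes in AOX/NDI1 cells was 0.10, with 14 of 22 above 0, and that of the variants 0.13, against -0.04 for all probe sets. H2BC11 had 131.7, 187.3 and 71.27 at day 9, against 108.7, 132.5 and 91.35 at day 0, and H2BC12L had 3352, 3968 and 2769 at day 9, against 3346, 3733 and 2915 at day 0, so that both groups of each gene overlapped. H2AJ came nearest to the threshold after H2BC21, with 1380, 1493 and 1862 at day 9, against 847.9, 967.9 and 765 at day 0 (0.87, adjusted p = 0.0587). Its groups did not overlap, but in this comparison 5377 of all 23132 probe sets were likewise higher on every day 9 array. H2AJ was called without DN-POLG day 6 replicate 1 (adjusted p = 0.0149), day 6 replicate 3 (0.0485) or day 3 replicate 2 (0.0459), arrays that enter only through the shared estimate of spread. The linker variant H1-10 had 3266, 3637 and 3633 at day 9, against 2307, 1931 and 1689 at day 0 (0.84, adjusted p = 0.239). H3-3A, an H3.3 gene, had the most negative difference of the variants (-0.67, adjusted p = 0.245, and -1.16 with 0.0238 without AOX/NDI1 day 9 replicate 2), and H2AC6 that of the replication-dependent genes (-0.47, adjusted p = 0.516). The ACTB 3′ to 5′ ratio was 1.27 to 1.52 at day 9, against 1.14 to 1.18 at day 0 (exact two-sided permutation test, p = 0.1, the smallest that 3 against 3 arrays allow), and its part in these values was not tested.

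A call in DN-POLG cells and no call in AOX/NDI1 cells does not show that they differ, so the difference between both day 9 changes was tested as an interaction. No histone gene passed (lowest adjusted p = 0.999), as was so for all probe sets (0% called higher and 0% lower). At an unadjusted p under 0.05, 6 replication-dependent genes had a larger change in DN-POLG cells and none a smaller one, namely H2BC11 (2.52, SE 0.65), H2AC14 (1.54, SE 0.71), H2AC17 (1.44), H2BC9 (0.98), H2BC12L (0.97) and H2BC6 (0.90), while the difference for H2BC21 was 1.20 (SE 0.64, unadjusted p = 0.0777). Of all 23132 probe sets, 572 had a larger and 212 a smaller change at that level. Of the 22 differences, 21 were above 0, with a median of 0.67 against 0.05 for all probe sets. Part of the H2BC11 difference lay at day 0, where AOX/NDI1 cells had 108.7, 132.5 and 91.35, against 51.25, 25.99 and 49.52 in DN-POLG cells (1.44, adjusted p = 0.906). No histone gene was called between AOX/NDI1 and DN-POLG cells at day 0, where 0.00432% of probe sets were called higher and 0% lower, and these comparisons share their day 0 arrays.

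The genes that act on histone genes and histone mRNA were then read from fixed lists. NPAT, the coactivator that switches on the clusters in S phase, fell in both backgrounds. Its signals in DN-POLG cells were 887.5, 1075 and 987.9 at day 0, 1069, 805.3 and 1151 at day 3, 538.3, 530.7 and 674.4 at day 6, and 297.4, 246.5 and 221.9 at day 9, a difference of -1.95 at day 9 (SE 0.20, adjusted p = 9.81e-05). In AOX/NDI1 cells it had 223.6, 203.8 and 209.8 at day 9, against 1035, 846 and 1168 at day 0 (-2.25, SE 0.20, adjusted p = 2.46e-05). Its second tested probe set also fell, by 1.30 in DN-POLG and by 1.38 in AOX/NDI1 cells. Whether the fall of NPAT bears on the histone values in either background was not tested.

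CASP8AP2 (FLASH), which acts with NPAT and in the 3′ end processing of histone mRNA, fell in AOX/NDI1 cells (-1.21, adjusted p = 0.0213). In DN-POLG cells it had 1351, 1368 and 1097 at day 9, against 2778, 2715 and 2416 at day 0, without overlap, but was just short of the threshold (-1.06, adjusted p = 0.0529). The cyclin E gene CCNE2 fell in DN-POLG cells (-0.82, adjusted p = 0.0371), while its second probe set was not called (-0.53, adjusted p = 0.581). Among the 7 tested transcription factors, 2 thus fell in each background and none rose, against 6.07% of all tested probe sets called lower in DN-POLG and 9.33% in AOX/NDI1 cells. None of 12 genes of histone mRNA 3′ end processing was called in either, including SLBP (-0.38 in DN-POLG cells, adjusted p = 0.419).

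Of 21 histone chaperones, ASF1B, the proliferation-linked carrier of H3 and H4, fell in DN-POLG cells (-1.21, adjusted p = 0.0055), as did UBN1 (-0.79, adjusted p = 0.0202, with a second probe set at -1.59 and 0.0762), a subunit of the HIRA complex that deposits H3.3. HIRA itself fell in AOX/NDI1 cells (-0.84, adjusted p = 0.0281). These counts of 2 and 1 of 21 lie near the shares of all probe sets called lower. None of the 9 H2A.Z exchange genes was called in either background. Of 17 S phase genes, none was called in DN-POLG cells (median -0.03), and the replication helicase gene MCM5 rose in AOX/NDI1 cells (1.25, adjusted p = 0.019) by a probe set whose companion was not called (0.67, adjusted p = 0.105). Of 5 tested HEK293 markers, 1 fell in DN-POLG cells at day 9 (EYA1, also at day 6) with a median of 0.34 over the list, and 2 fell in AOX/NDI1 cells at day 9 (EYA1 and SIM1) with a median of -0.22. None rose, and the part of a change in cell state in the histone values was not tested.

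**Figure D3:**
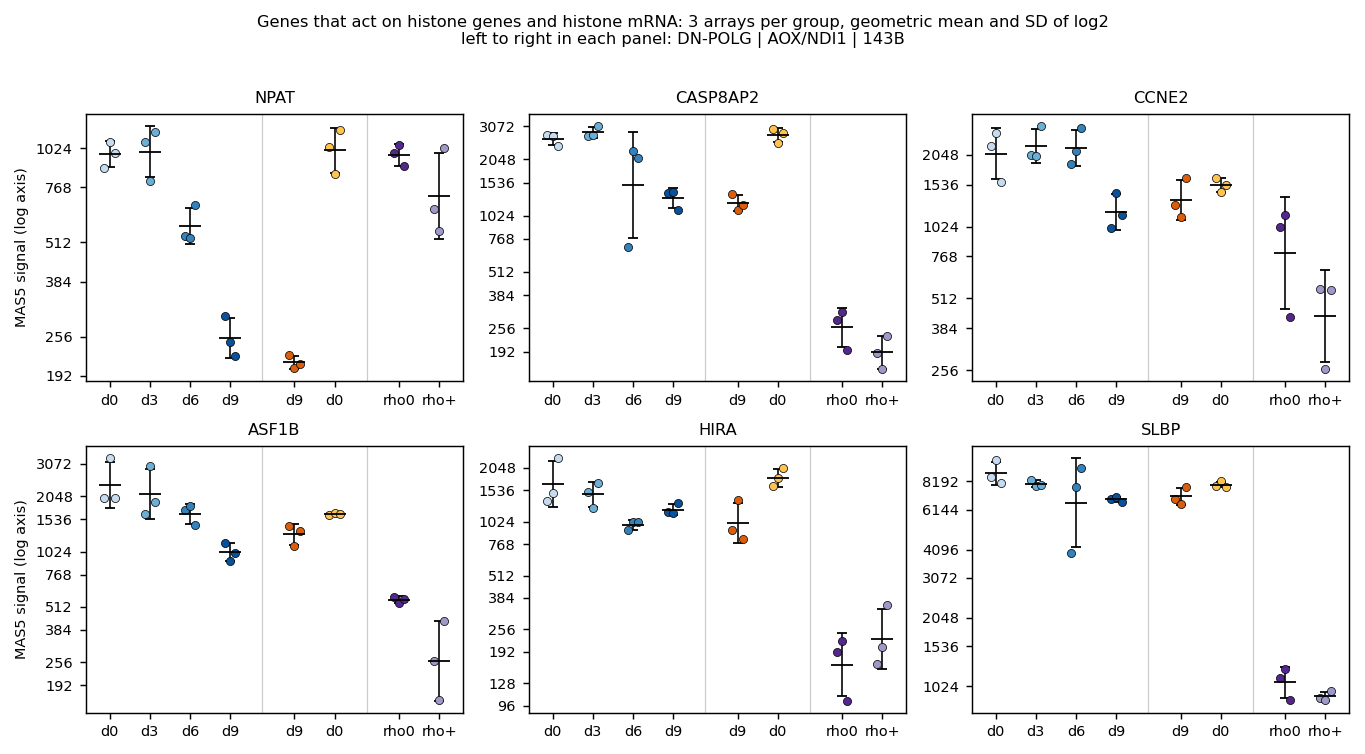
MAS5 signal (log axis) of 6 genes that act on histone genes, histone mRNA or histone proteins, with a point for each of 3 arrays per group and bars for the geometric mean and the SD of the log2 signal. NPAT lies between 221.9 and 297.4 in DN-POLG cells at day 9 and between 203.8 and 223.6 in AOX/NDI1 cells at day 9, below every day 0 array.

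The third question was whether cells that lack mtDNA lastingly carry the same pattern. In 143B cells, none of 28 replication-dependent genes was called between rho0 and rho+ cells and 1 of 9 variants fell, against 2.24% of all tested probe sets called higher and 5.41% called lower. MACROH2A2 had signals of 328.4, 265.9 and 647.1 in rho0 cells, against 1198, 862.9 and 1703 in rho+ cells (-1.65, SE 0.40, 0.318-fold, adjusted p = 0.0435). Its groups did not overlap, but the call was lost without any of 5 of the 6 arrays (all except rho0 replicate 3, the highest rho0 array). It was also lost when arrays were centred on their medians, without a signal filter and with the methods' ANOVA. MACROH2A1, the other macroH2A gene, differed by 0.59 (adjusted p = 0.161).

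Of the 8 genes that rose in DN-POLG cells, 7 were tested in 143B cells and none was called, with 5 differences above 0 and 2 below. H2BC21 had 193.8, 207 and 671.5 in rho0 cells, against 587, 627.9 and 790.4 in rho+ cells (-1.15, adjusted p = 0.158), with rho0 replicate 3 inside the rho+ range. H2AC25 had 357.4, 284.5 and 570.9 in rho0 cells, against 779.2, 692.4 and 716.2 in rho+ cells (-0.91, adjusted p = 0.0972), while H2AC14 had 2213, 2078 and 3169 in rho0 cells, against 1284, 850.6 and 1814 in rho+ cells (0.96, adjusted p = 0.112). H2BC5, H2BC9, H2BC6 and H2BC12L differed by 0.67, 0.61, 0.42 and 0.14. Rho0 replicate 3 thus lay nearer to rho+ than the other 2 rho0 arrays in H2BC21, H2AC25 and MACROH2A2, and without it 5 histone genes were called, with H2BC21 (-1.73, adjusted p = 0.00354), H2AC25 (-1.19, adjusted p = 0.00952), H2BC12 (-1.05, adjusted p = 0.0472) and MACROH2A2 lower and H2AC17 higher.

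Uncalled differences of over 2-fold also lay in linker and H3 genes. H1-4 had 822.5, 1675 and 3735 in rho0 cells, against 894, 287.1 and 519 in rho+ cells (1.76, adjusted p = 0.102), with overlap, and H1-3 differed by 1.14 (adjusted p = 0.268). H3C6 had 91.75, 72.92 and 27.61 in rho0 cells, against 166.9, 194.4 and 112.8 in rho+ cells (-1.44, adjusted p = 0.0915). Some genes gave other answers with their other probe sets, since a second probe set of H3C6, the brighter one in 143B cells, fell by 2.02 (adjusted p = 0.0101), 1 of H4C8 fell by 1.30 (adjusted p = 0.0263) and 2 of H2AJ fell by 1.51 (adjusted p = 0.019) and 1.20 (adjusted p = 0.0329), where the brightest probe sets of H4C8 and H2AJ had differences of 0.33 and 0.74. The median of the replication-dependent genes was 0.37, against -0.05 for all probe sets. The ACTB 3′ to 5′ ratio was 5.53 to 8.12 in rho0 cells, against 10.4 to 17.1 in rho+ cells (exact two-sided permutation test, p = 0.1, the smallest possible), and its part in these values was not tested.

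Of the genes around the histones, IPO4, an importin that carries H3 and H4 into the nucleus, rose in rho0 cells (1.32, adjusted p = 0.0374). None of the other 20 chaperones, 7 transcription factors, 12 processing genes, 9 H2A.Z exchange genes or 17 S phase genes was called, although all 17 S phase genes had a difference above 0 (median 0.54). NPAT, which fell in both HEK293 backgrounds, had a difference of 0.44 (adjusted p = 0.357).

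**Figure D4:**
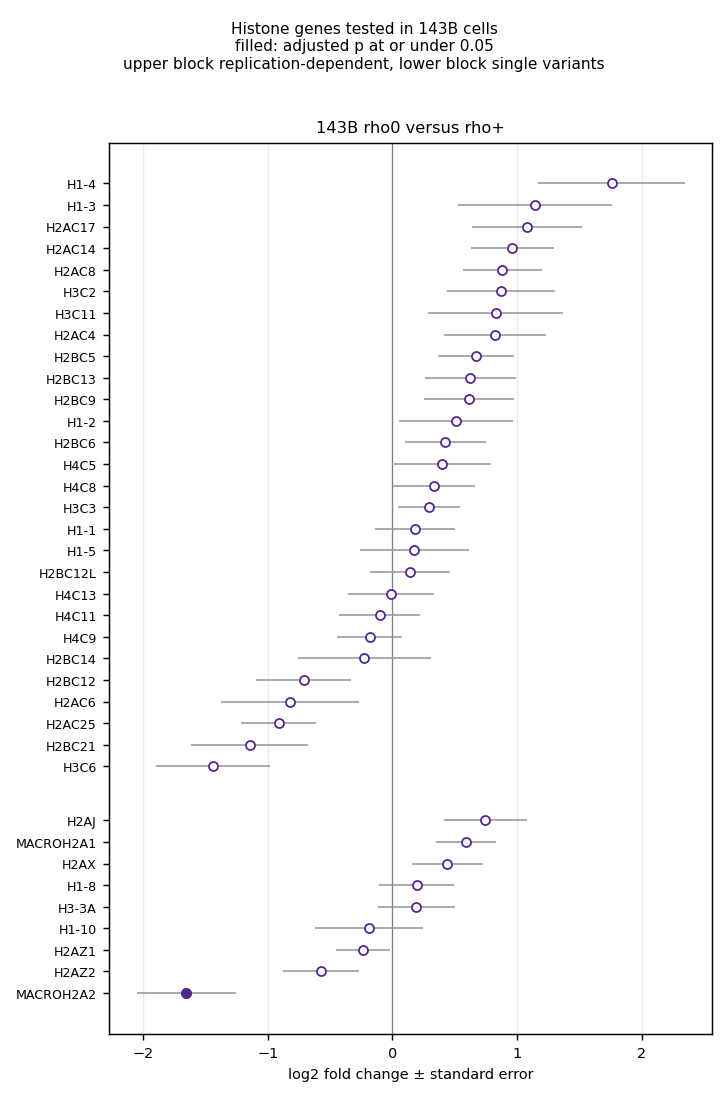
Log2 fold change with its standard error for the 37 histone genes tested in 143B cells, rho0 versus rho+, with filled points at an adjusted p of at most 0.05. Only MACROH2A2 (-1.65) is filled, and H2BC21 (-1.15) and H2AC25 (-0.91) lie on the negative side.

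The levels of histone genes also differed between the cell lines, which is given as a description because line, RNA quality and any array run cannot be told apart. Of 32 replication-dependent genes tested in at least 1 line, 16 were higher in all 6 143B arrays than in all 18 HEK293 arrays and none was lower, against 21.7% of 26467 probe sets higher and 20% lower. Of 9 variants, 2 were higher and 4 lower. Of the 16, however, 8 passed the filter on dim probe sets only through their 143B signals, as did H1-8 among the variants, so that their difference follows in part from that filter. Among genes tested in both lines, 8 of 18 replication-dependent genes were higher and none lower in 143B cells, and 1 of 8 variants was higher and 4 were lower. The shares above cover probe sets tested in either line. Those of all probe sets tested in both lines were not worked out, so no conclusion is drawn from these counts. Probe sets shared by several histone genes were outside these counts and ran both ways. A probe set for 14 H4 genes had 160.8 to 225.7 in rho+ cells and 169 to 369.1 in rho0 cells. In DN-POLG cells at day 0 it had 32780 to 50590. Another for the same genes had 293.3 to 477.2 in rho+ cells and 424.8 to 1270 in rho0 cells, against 87.03 to 113.1 in DN-POLG cells at day 0.

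Among H2A genes, H2AC8 had a median signal of 2094 (994.8 to 3347) in 143B cells, against 6.085 (1.303 to 44.88) in HEK293 cells, where it was below the level tested. H4C5 had 1907 (1235 to 3662) in 143B cells, against 99.92 (77.9 to 176.4) in HEK293 cells. The linker gene H1-1 had 799.4 (528.1 to 987.2) in 143B cells, against 8.973 (5.782 to 42.45) in HEK293 cells. Genes of the H1, H2A, H3 and H4 families all had such members. By probe sets of a single symbol, most H2B genes overlapped between the lines, with H2BC6 and H2BC14 as the exceptions. The HEK293 range includes the day 9 arrays. For H2BC5 its upper end, 2918, was a DN-POLG day 9 array, against at least 2107 in 143B cells. Shared H2B probe sets differed. One for H2BC8 and H2BC11 had at least 433.2 in 143B cells and at most 100.6 in HEK293 cells. Another, for 5 H2B genes, overlapped (at least 1260 and at most 1264).

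The variants mostly ran the other way. H1-10 had a median of 175.4 (126 to 352.4) in 143B cells, against 2628 (1527 to 7356) in HEK293 cells, and H2AZ1 had 11330 (9993 to 12890), against 22100 (19110 to 28780) in HEK293 cells. MACROH2A1 and H2AX were also lower in every 143B array. H3-3A was an exception, with 2698 (2564 to 4895) in 143B cells, against 314.7 (113.7 to 557.5) in HEK293 cells, as was H1-8, a linker histone best known from oocytes, with dim signals of 109 (81.47 to 145.2) in 143B cells, against 7.891 (3.288 to 13.77) in HEK293 cells. The ACTB 3′ to 5′ ratio had a median of 9.26 in 143B cells and 1.27 in HEK293 cells, and the GAPDH ratio 1.98 and 0.986, so RNA quality or labelling differed with the line and its part in these levels was not tested.

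**Figure D5:**
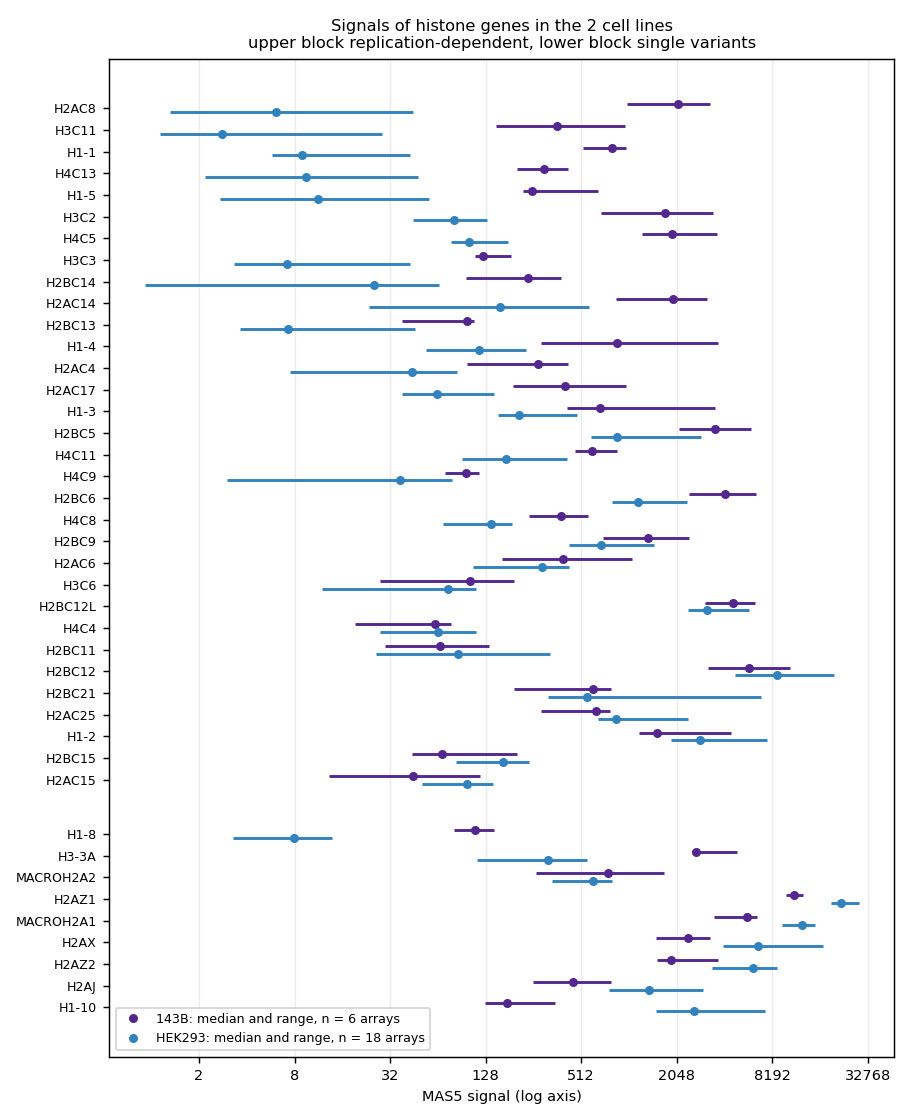
Median MAS5 signal (log axis) with the lowest and highest array of each histone gene tested in at least 1 line, over 6 143B arrays (upper, purple) and 18 HEK293 arrays (lower, blue). Replication-dependent genes at the top lie to the right in 143B cells, such as H2AC8 (2094 in 143B, 6.085 in HEK293), and variants such as H1-10 (175.4 and 2628) to the left. Of the 16 replication-dependent genes higher in every 143B array, 8, with H2AC8 among them, passed the filter on dim probe sets only through their 143B signals.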

How the data were processed

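For the 24 arrays, total RNA was labelled with the Affymetrix 3' IVT Plus kit and hybridized to HG-U133 Plus 2.0 chips. The authors deposited MAS5 signal intensities from Expression Console, scaled so that the trimmed mean of every array was 500.1. Probe sets were named from the platform annotation with symbols updated through RefSeq: 41097 of 54675 had 1 symbol, 1801 several and 11777 none, and 62 controls were left out. Log2 signals, with nothing added, were fitted with limma 3.58.1 (R 4.3.3), with 1 model for the 6 HEK293 groups and another for 143B, and p-values were adjusted over 23132 and 22786 tested probe sets (12104 and 11433 genes). The model steps were tested on simulated data.

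The members and lists were chosen with earlier results of these data known. Named genes were those called in any comparison, the 3 brightest of each class and those with the largest differences per comparison; others named here were picked after their values were seen. Per the methods, each replicate was a culture round from a single starter culture (days 6 and 9 pooled flasks), so replicate numbers were taken to pair the arrays of DN-POLG and of AOX/NDI1 cells. The main fits did not use this pairing, which entered only as a replicate block in an alternative fit. In DN-POLG cells, the correlations of same-numbered deviations were 0.32, 0.51 and 0.44 for days 3 and 0, but -0.32, -0.2 and 0.04 for days 9 and 0. Nothing stated a pairing for 143B arrays, and whether these are separate cultures was not stated, so their p-values measure the spread between these arrays. No 2 arrays held identical values (highest correlation 0.9445). Line names follow the labels, and the number of arrays limits the precision. Scan dates and batches were not given in the sources used here. Alternatives covered normalization, an added constant, signal filters, choice of probe set, arrays in the fit, array weights, the methods' ANOVA, a replicate block and each array left out. After the data were seen, the brightest probe set of each line, any probe set of a gene, and shared probe sets were added.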

Additional observations from a re-analysis of the deposited data

Results flagged for a closer look

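Probe sets annotated to several histone genes were outside the counts above, and 9 of their changes passed the same adjusted threshold. Of 20 such probe sets on the array, 12 were bright enough to test in HEK293 cells, and 7 of these rose in DN-POLG cells at day 9 and 2 in AOX/NDI1 cells at day 9, with none lower (against 2.31% and 2.46% of all tested probe sets called higher), while none of 15 was called in rho0 against rho+ cells.

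In DN-POLG cells at day 9, 3 probe sets for the H2A gene pair H2AC18 and H2AC19 rose by 2.42, 2.06 and 2.57 on the log2 scale. The set that changed by 2.42 had signals of 19430, 16190 and 26520 at day 9, against 3506, 4440 and 3490 at day 0. The sets with changes of 2.42 and 2.57 also rose in AOX/NDI1 cells, by 1.44 and 1.62, while the set that changed by 2.06 had a difference of 0.29 there (adjusted p = 0.751). The set with the change of 1.44 had 10950, 17710 and 9650 at day 9, against 4661, 5306 and 3785 at day 0. In both backgrounds, that set was thus higher on every array at day 9 than on any at day 0.

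A probe set for 14 H4 genes rose by 2.03 in DN-POLG cells, with signals of 1054, 1447 and 2063 at day 9, against 412, 282.4 and 399.1 at day 0. The 2 others for the same H4 genes that were bright enough to test were not called (0.87, adjusted p = 0.381, and -0.58, adjusted p = 0.374). The one with -0.58 had 30230, 21030 and 29100 at day 9, against 32780, 50590 and 37240 at day 0, so that its groups did not overlap and its day 9 arrays were the lower ones. Both probe sets for 5 H2B genes (H2BC4, H2BC6, H2BC7, H2BC8 and H2BC10) rose, by 1.36 and 1.37, and a dim probe set for H2AC7 and H3C4 rose by 1.72, with 111.3, 90.17 and 185.1 at day 9, against 20.05, 32.88 and 78.04 at day 0. Since their genes cannot be separated, no single gene can be named from these probe sets.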

How the results depend on the processing

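Counts are of called histone genes. In DN-POLG cells at day 9, 8 genes were called, against 2 without probe sets that can match several transcripts (H2AC25 and H2BC11), 3 with only the arrays of that comparison, and 5 to 10 with an array left out (5 without DN-POLG day 9 replicate 3). Over the settings with all arrays kept, the count ran from 2 to 11. H2AC14 was not called without a signal filter or with the methods' ANOVA. At day 6 the count of 0 became 1 (H2AZ2) with a 75th percentile filter and with the methods' ANOVA, and was 0 to 1 with an array left out. In AOX/NDI1 cells at day 9, the count of 1 became 2 (with H2AJ) after quantile normalization, centring or the 75th percentile filter, 0 without probe sets that can match several transcripts, 5 with only the arrays of that comparison and 8 with array weights, and was 0 to 2 with an array left out. With array weights 1 gene, H2BC11, was called between the lines at day 0 and 1, again H2BC11, for the difference of the day 9 changes (2.21, adjusted p = 0.0477). In 143B cells the count of 1 became 3 after centring (H1-4, H2AC14 and H2AC8, all higher, without MACROH2A2), 2 with the mean of a gene's probe sets, 10 with array weights, 3 without probe sets that can match several transcripts and 0 with the methods' ANOVA. It became 3 with the brightest probe set of the line and 4 with any probe set (both added after seeing the data), and was 0 to 5 with an array left out (5 without rho0 replicate 3). The cause of these changes was not tested. Centring moved the median of all probe sets from -0.05 to 0.26 in 143B cells and from -0.04 to 0.10 in AOX/NDI1 cells, so directions of small differences there are relative to it. With the replicate number as a block, the counts were 0 at days 3 and 6, 8 and 1 at day 9 in DN-POLG and AOX/NDI1 cells and 1 in 143B cells, and the block changed no call of a histone gene, while calls over all probe sets became 18 higher and 25 lower at day 6, and 158 and 567 in 143B cells. With other probe sets of the same gene, H2AJ (-1.51 and -1.20, against 0.74) and H4C8 (-1.30, against 0.33) had the opposite sign in 143B cells. Of the called histone results, 264 settings kept the call and 25 lost it. Genes near the tested signal, H2BC11 at day 0 among them, are limited by brightness.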

Other observations

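Histone-related genes outside the rule were measured too. CENPA, the histone H3 variant of centromeres, had signals of 698.6, 523.2 and 503.9 in DN-POLG cells at day 9, against 459.4, 843.8 and 740.9 at day 0, and 222.8, 204.3 and 518.8 in rho0 cells, against 270, 192.7 and 154.1 in rho+ cells, with overlap in both comparisons and no call. The pseudogene H2AC5P had 46.45, 96.11 and 112.4 in DN-POLG cells at day 9, against 24.43, 49.82 and 6.726 at day 0, too dim on average to be tested. Among the marker genes, SIM1 fell by 5.12 on the log2 scale in AOX/NDI1 cells at day 9 (adjusted p = 0.00104), and S100A4 and LGALS1 rose by 2.89 and 1.86 in rho0 cells (adjusted p = 0.00138 and 0.0189).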
